A study of Mus musculus with 9 samples.

Results

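The 9 hippocampal RNA libraries of this study held very unequal amounts of transcripts that mark the choroid plexus, a tissue that borders the hippocampus but is not part of it. Libraries were sorted by the abundance of Ttr, the transcript of transthyretin, as its share of the library's counts in CPM, the usual read count scaled to sequencing depth. Of 9 libraries, 6 had a value over 1000 and are called choroid plexus-rich, and 3 had under 100 and are called choroid plexus-poor. Each was made from polyadenylated hippocampal RNA taken postmortem from mice of the inbred strain C57BL6/J, and the study put 3 libraries into each of 3 treatment groups. The sham group was given saline. A second group had an injection of doxorubicin, an anthracycline used against cancer that damages DNA through topoisomerase II, and the third group had this injection and a supplement of MitoQ, an antioxidant related to ubiquinone that collects in mitochondria. No genotype other than the strain is named, and the sources used here give neither dose, time, age and sex nor whether each library came from its own mouse. P-values between treatments therefore measure the spread between these libraries, which may be technical. The rich libraries were sham replicate 2, doxorubicin replicates 1 and 3 and all 3 doxorubicin plus MitoQ replicates. The poor libraries were sham replicates 1 and 3 and doxorubicin replicate 2.

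The choroid plexus hangs in the brain ventricles, and in the lateral ventricle it lies directly beside the hippocampus. Its epithelium, a single layer of cuboidal cells around a fenestrated capillary core, secretes cerebrospinal fluid by moving sodium, chloride and bicarbonate across the cell, with water following through aquaporin 1. Tight junctions between the cells form the barrier between blood and cerebrospinal fluid. The cells also make carrier proteins and growth factors for the fluid, of which transthyretin, the carrier of thyroxine and of retinol-binding protein, is the most abundant.

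Because the classes were defined by a measured transcript, all values that compare them are a description. The edgeR quasi-likelihood fit with treatment as a covariate is used to give log2 differences with their standard errors (SE), and its Benjamini-Hochberg adjusted p under 0.05 serves only to count genes past a fixed line. Levels are given as CPM on TMM-adjusted library sizes. Rich libraries made up 1 of 3 in sham, 2 of 3 in doxorubicin and 3 of 3 in doxorubicin plus MitoQ. Totals ranged from 24.7 to 25.6 M (mega) counts in the poor libraries and from 26.0 to 41.2 M in the rich ones, so the 3 poor libraries were also the 3 shallowest, and the part of depth in the differences was not tested. Within the rich class the deepest library, doxorubicin plus MitoQ replicate 2, had the least Ttr. In bulk RNA, fewer cells of a type and less RNA per cell cannot be told apart. Hippocampal neuron markers were present at similar summed levels in both classes, at 1843 to 2226 CPM in rich and 2068 to 2193 CPM in poor libraries for 9 CA1 pyramidal genes and at 1126 to 1462 against 1114 to 1240 CPM for 11 dentate granule genes.

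Ttr (chromosome 18, bases 20665280 to 20674321, GRCm38) stood at 42.2, 4633 and 55.3 CPM in sham replicates 1, 2 and 3, at 3777, 35.8 and 1975 CPM in the doxorubicin replicates and at 3245, 1213 and 4870 CPM in the doxorubicin plus MitoQ replicates. No library lay between the classes: by the count over the library total, the lowest rich library had 1227 and the highest poor library 56.0 CPM, a 21.9-fold gap. The mean was 3285 ± 1455 CPM in rich (SD, n = 6) against 44.4 ± 9.90 CPM in poor libraries (SD, n = 3), and the log2 difference was 6.45 (SE 0.51). The poor libraries were thus not free of Ttr, and the rich ones spanned a 4.01-fold range among themselves. Enpp2 (chromosome 15, bases 54838901 to 54952892) encodes autotaxin, the secreted enzyme that makes lysophosphatidic acid. It was at 205, 1914 and 168 CPM in sham, 1514, 202 and 756 CPM in doxorubicin and 1206, 695 and 1836 CPM in doxorubicin plus MitoQ libraries, with no overlap between classes.

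Most other secreted and carrier proteins separated the same libraries. Kl encodes klotho, the co-receptor of fibroblast growth factor 23 that is also shed into cerebrospinal fluid. It was at 29.6, 199 and 30.6 CPM in sham, 172, 31.0 and 98.9 CPM in doxorubicin and 136, 75.5 and 202 CPM in doxorubicin plus MitoQ libraries, a log2 difference of 2.44 (SE 0.34). Igf2, a growth factor of the choroid plexus and meninges, was at 94.5 to 232 CPM in rich against 41.6 to 74.3 CPM in poor libraries, so its poor level was a larger share of its rich level than that of Ttr. Coagulation factor V, F5, was at 23.6 to 70.9 against 1.41 to 2.18 CPM, and the protease inhibitor Wfdc2 at 1.296 to 6.37 against 0 to 0.196 CPM. In this list 12 of 12 members were higher in rich libraries, with a median log2 difference of 2.78. Ttr, which defined the classes, is counted among them. Of the 12, 10 passed the edgeR line, Ttr included. The share over all 15296 genes tested was 0.484%, which is background from the contrast that defined the classes. The 2 that did not were Igfbp2, the binding protein of insulin-like growth factors, at 38.9 to 105 against 17.6 to 29.7 CPM without overlap, and clusterin, Clu, an apolipoprotein that astrocytes and neurons also make, at 996 to 1173 against 955 to 1108 CPM. Sostdc1, a secreted antagonist of BMP and Wnt signals, was at 10.9 to 36.2 against 2.32 to 3.05 CPM, and the secreted augurin, listed in the table by its older symbol 1500015O10Rik, at 11.3 to 38.8 against 0.991 to 2.15 CPM. The lipopolysaccharide-binding protein gene Lbp was at 10.8 to 30.0 against 3.21 to 5.56 CPM. Per kilobase of exon, the mean level in rich libraries was 2770 CPM per kb for Ttr, 320 for Clu, 228 for Enpp2, 39.0 for Igfbp2 and 28.9 for Igf2.

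**Figure D1:**
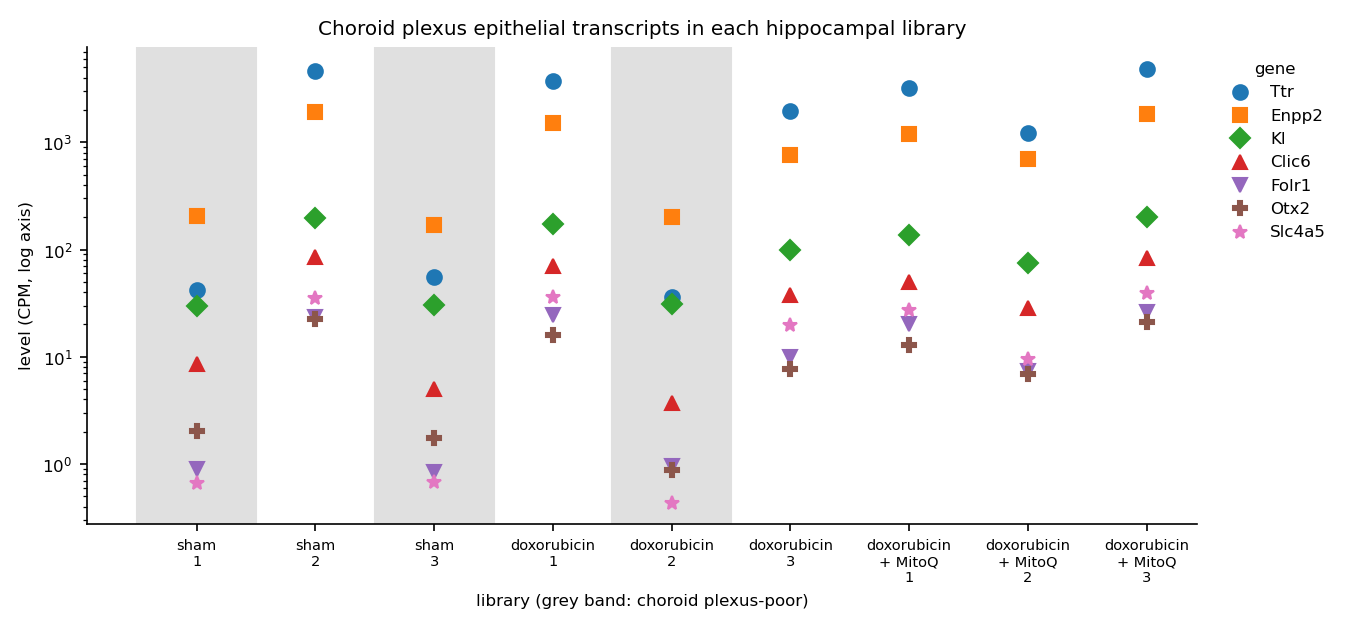
Level in CPM (log axis) of 7 choroid plexus epithelial transcripts in each of the 9 libraries; each symbol is 1 library, and grey bands mark the 3 poor libraries. Ttr lies between 1213 and 4870 CPM in the 6 rich libraries and between 35.8 and 55.3 CPM in the 3 poor ones, and the other 6 genes separate the classes as well.

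The epithelium's transport machinery was higher in rich libraries for all 21 listed genes, with a median log2 difference of 3.39. Of the 21, 13 passed the edgeR line, against 0.484% of all genes tested. Slc4a5 (chromosome 6, bases 83219828 to 83304945), a sodium bicarbonate cotransporter of the apical membrane, was at 0.665, 35.6 and 0.680 CPM in sham, 35.9, 0.436 and 19.8 CPM in doxorubicin and 27.2, 9.55 and 39.3 CPM in doxorubicin plus MitoQ libraries. Its mean of 27.9 CPM in rich was 47.0-fold that in poor libraries, the widest separation in this list. The water channel Aqp1 was at 6.96 to 25.0 CPM in rich against 0.352 to 0.640 CPM in poor libraries. The potassium channel Kcnj13 was at 9.84 to 34.1 against 0.714 to 1.20 CPM, and Kcne2, an accessory subunit of potassium channels, at 6.30 to 29.9 against 0.357 to 0.470 CPM. The folate receptor Folr1, which carries folate into cerebrospinal fluid, was at 7.37 to 26.3 against 0.840 to 0.951 CPM. Clic6, a chloride channel protein, was at 28.5 to 86.0 against 3.69 to 8.57 CPM, the sulfate transporter Slc13a4 at 15.9 to 41.4 against 3.49 to 10.5 CPM and the cation channel Trpv4 at 6.19 to 18.2 against 1.11 to 1.995 CPM. Of the less abundant genes, the metalloreductase Steap1 and the organic anion transporter Slco1a5 were at 1.34 to 7.17 against 0.0800 to 0.278 CPM and at 0.328 to 1.17 against 0.0400 to 0.119 CPM. Most of these genes were low in poor libraries without being at 0.

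Several other transport genes of the list had smaller differences. The chloride cotransporter Slc12a2 (NKCC1) was at 77.2 to 124 CPM in rich and 71.9 to 85.3 CPM in poor libraries, and these ranges overlapped. The plasma membrane calcium pump Atp2b3 was at 350 to 439 and 301 to 363 CPM, a log2 difference of 0.21 (SE 0.09), and the organic anion transporter Slc22a8 at 10.2015 to 17.3 and 12.2 to 15.3 CPM, a difference of 0.20 (SE 0.18). The carbonic anhydrase Car12 was at 47.7 to 96.7 and 38.0 to 52.4 CPM with overlap, and Car14 at 12.3 to 21.2 against 8.22 to 10.1 CPM without. The anion exchanger Slc4a2, of the basolateral membrane, was at 46.8 to 92.6 against 32.3 to 34.5 CPM, and the monoamine transporter Slc29a4 at 54.4 to 79.1 against 45.7 to 53.3 CPM. The copper importer Slc31a1 was at 25.0 to 44.8 against 15.6 to 18.9 CPM, and the cation channel Trpm3, which hosts a microRNA and is also expressed in neurons and glia, at 110 to 162 against 69.0 to 82.2 CPM, both without overlap. Slc16a8, the lactate transporter MCT3, did not vary in proportion to Ttr within the rich class. It was at 5.62 CPM in sham replicate 2, 5.52 and 5.17 CPM in doxorubicin replicates 1 and 3 and 5.12, 1.22 and 5.75 CPM in the doxorubicin plus MitoQ replicates. Doxorubicin replicate 3, with the second-lowest Ttr of the class, was thus close to the highest libraries, and the order of the 6 libraries was otherwise near that of Ttr.

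Among receptors, junction proteins and surface markers, 12 of 13 were higher in rich libraries, with a median of 3.06. Of the 13, 9 passed the edgeR line, against 0.484% of all genes tested. Tmem72, a membrane protein of the choroid epithelium, was at 4.30 to 19.6 CPM in rich against 0.0800 to 0.357 CPM in poor libraries, a log2 difference of 6.11 (SE 0.80). Prlr (chromosome 15, bases 10177238 to 10349180), the prolactin receptor, was at 2.82, 58.4 and 3.64 CPM in sham, 47.7, 4.36 and 21.4 CPM in doxorubicin and 32.9, 20.2 and 52.95 CPM in doxorubicin plus MitoQ libraries. The leaky, cation-selective claudin of this epithelium, Cldn2, was at 6.70 to 22.4 against 0.793 to 1.0003 CPM, and Cldn1, a sealing claudin, at 5.30 to 12.6 against 1.19 to 2.39 CPM. The epithelial keratins Krt18 and Krt8 were at 2.42 to 9.47 against 0.600 to 0.951 CPM and at 1.296 to 5.17 against 0.198 to 0.587 CPM. Col8a1, a short-chain collagen, was at 6.84 to 24.3 against 0.396 to 1.37 CPM, Perp, a desmosomal membrane protein, at 5.35 to 9.78 against 1.96 to 2.54 CPM, and the calmodulin-like Calml4 at 3.96 to 11.7 against 1.11 to 1.84 CPM. Cldn3, a rarer claudin, was at 0.336 to 1.59 against 0.119 to 0.2001 CPM. Angiotensin-converting enzyme, Ace, was at 43.3 to 119 against 12.04 to 13.9 CPM. The serotonin receptor Htr2c, also a neuronal gene, was at 41.4 to 76.6 against 30.1 to 33.5 CPM, without overlap but under the edgeR line. Cdh1, epithelial cadherin, was the exception, at 0.583 to 3.24 in rich and 0.634 to 2.74 CPM in poor libraries with a log2 difference of -0.26 (SE 0.64).

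Of 8 transcription factors of the epithelium, 6 were higher in rich libraries, with a median of 1.13. The edgeR line was passed by 1 of the 8, against 0.484% of all genes tested. The median was 1.41 within sham and 0.578 within doxorubicin, and without sham replicate 2 it was 0.577. The called gene was Otx2 (chromosome 14, bases 48657677 to 48673819), a homeobox factor needed to form and maintain the choroid plexus, at 2.03, 22.3 and 1.76 CPM in sham, 15.9, 0.872 and 7.72 CPM in doxorubicin and 12.9, 6.89 and 21.04 CPM in doxorubicin plus MitoQ libraries. The homeobox gene Msx1 was at 9.87 to 23.3 against 6.30 to 7.44 CPM. Lmx1a, a LIM homeobox factor of the roof plate from which the choroid plexus arises, was at 0.911 to 2.26 against 0.0800 to 0.743 CPM, and Msx2 at 0.328 to 1.26 and 0.160 to 0.509 CPM with overlap. The ciliary factor Rfx2 was at 4.96 to 7.26 against 4.50 to 4.92 CPM. Rfx3, at 101 to 143 and 111 to 121 CPM, and Emx2, at 22.6 to 28.5 and 22.6 to 25.2 CPM, had log2 differences of -0.02 (SE 0.11) and -0.06 (SE 0.10). Foxj1, the master regulator of motile cilia, is shared with ependyma and was at 15.5 to 31.7 against 13.5 to 13.7 CPM.

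Over the 4 lists, all 54 genes were in the table and passed the filter on low counts. Of these, 51 were higher and 3 lower in rich libraries, the median log2 difference was 2.62 against -0.00 over all genes tested, 33 passed the edgeR line, and for 44 all 6 rich libraries lay above all 3 poor ones. Across all genes tested 0.484% passed the edgeR line and the last held for 3.12%. The reverse, all rich below all poor, held for 1.31%. Ttr, which defined the classes, is counted in the 51, the 33 and the 44, where its place was fixed in advance.

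Promoters of the genes that passed the edgeR line are shown because these genes moved together and Otx2 was among them. Of the 33 called members, 25 had a promoter in the RefSeq table (GRCm38.p6; 250 bases before to 50 after the start). The core of the OTX motif, TAATCC or GGATTA on the other strand, occurred in 2 of these 25 (8.0%), against 7.16% of all 27025 promoters in the table and 5.48% of the 11546 promoters of genes tested. The X-box half-site GTTGCC, a part of the motif bound by RFX factors, or GGCAAC on the other strand, occurred in 4 of 25 (16.0%), in Aqp1, Kcne2, Otx2 and Steap1, against 12.7% of all promoters and 13.03% of those of genes tested. Neither share stood clear of its background. The 2 promoters with an OTX core are those of the lipid flippase Abca4 (chr3:122044210-122044509, plus strand), where it starts 58 bases before the start site, and of Ace (chr11:105967698-105967997, plus strand), where it starts 27 bases before it. Both run 5′ to 3′, and capitals mark the OTX core. Abca4 was at 10.5 to 35.4 CPM in rich and 1.80 to 2.04 CPM in poor libraries.
Abca4: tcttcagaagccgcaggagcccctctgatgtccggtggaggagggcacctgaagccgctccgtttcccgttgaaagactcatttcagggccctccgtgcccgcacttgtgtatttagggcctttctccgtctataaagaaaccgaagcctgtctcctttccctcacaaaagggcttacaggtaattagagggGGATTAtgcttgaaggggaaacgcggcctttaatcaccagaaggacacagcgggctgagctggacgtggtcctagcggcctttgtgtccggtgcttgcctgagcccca
Ace: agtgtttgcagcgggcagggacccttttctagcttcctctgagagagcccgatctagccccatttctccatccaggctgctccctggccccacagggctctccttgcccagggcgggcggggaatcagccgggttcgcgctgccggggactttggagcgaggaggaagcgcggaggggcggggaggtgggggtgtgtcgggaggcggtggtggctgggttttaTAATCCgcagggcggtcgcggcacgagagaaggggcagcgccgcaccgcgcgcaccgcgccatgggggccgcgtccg

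Over all 15296 genes tested, 74 passed the edgeR line and all 74 were higher in rich libraries (0.484%), with log2 differences from 0.49 to a fitted 8.37. Of these, 33, with Ttr itself among them, belong to the choroid lists and 41 do not. For 73 of the 74, rich and poor libraries did not overlap. By edgeR's quasi-likelihood test 0 genes were lower in rich libraries past the line (0.0%), where 500 genes were lower and 854 higher at an unadjusted p under 0.05. DESeq2 counted 212 higher and 19 lower, and limma-voom 8 and 0. Most called differences were large: 52 were at least 4-fold, 13 were between 1 and 2 on the log2 scale and 9 were under 1. The count depends on the libraries. It was 0 without any of sham replicate 1, 2 or 3 or doxorubicin replicate 2, and otherwise between 40 without doxorubicin plus MitoQ replicate 1 and 226 without doxorubicin replicate 3.

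The separation was present in the sham and in the doxorubicin group, which share no library. Sham replicate 2 against replicates 1 and 3 gave a log2 difference of 6.57 for Ttr, 3.36 for Enpp2, 2.73 for Kl and 3.55 for Otx2. Doxorubicin replicates 1 and 3 against replicate 2 gave 6.33, 2.49, 2.12 and 3.75 for the same genes. Among the 13871 genes whose mean reached 1 CPM, 69 were at least 4-fold higher in the rich sham library (0.497%) and 63 in the rich doxorubicin libraries (0.454%). These sets shared 57 genes, 82.6% of the sham set and 90.5% of the doxorubicin set. Of the 57, 30 belong to the choroid lists, Ttr, which defined the classes, included. At least 4-fold lower was 1 gene in each group, and none of them was shared. The limit of 1 CPM is a mean over 9 libraries, of which 6 were rich. Genes high in rich libraries pass it more easily, so the numbers higher and lower are not on equal terms. The median over the 54 choroid genes was 2.66 in sham and 2.69 in doxorubicin. A test of whether the class difference itself differed between sham and doxorubicin (edgeR's quasi-likelihood interaction, 1 against 2 rich libraries) called 0 genes, with a lowest adjusted p of 0.11 and 575 genes at an unadjusted p under 0.05. This test rests on 1 rich library in sham and 1 poor library in doxorubicin, whose spread is taken from the other libraries, so the 0 calls do not show that the difference was the same in both. Among the genes 4-fold higher in the doxorubicin set alone were Plin4, a lipid droplet protein gene, and Hif3a, a hypoxia-inducible factor subunit, both singled out after their values were seen. Their high value came from doxorubicin replicate 3, with 54.8 CPM for Plin4 against 1.60 to 4.87 CPM elsewhere and 30.0 CPM for Hif3a against 3.14 to 7.80 CPM elsewhere.

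**Figure D2:**
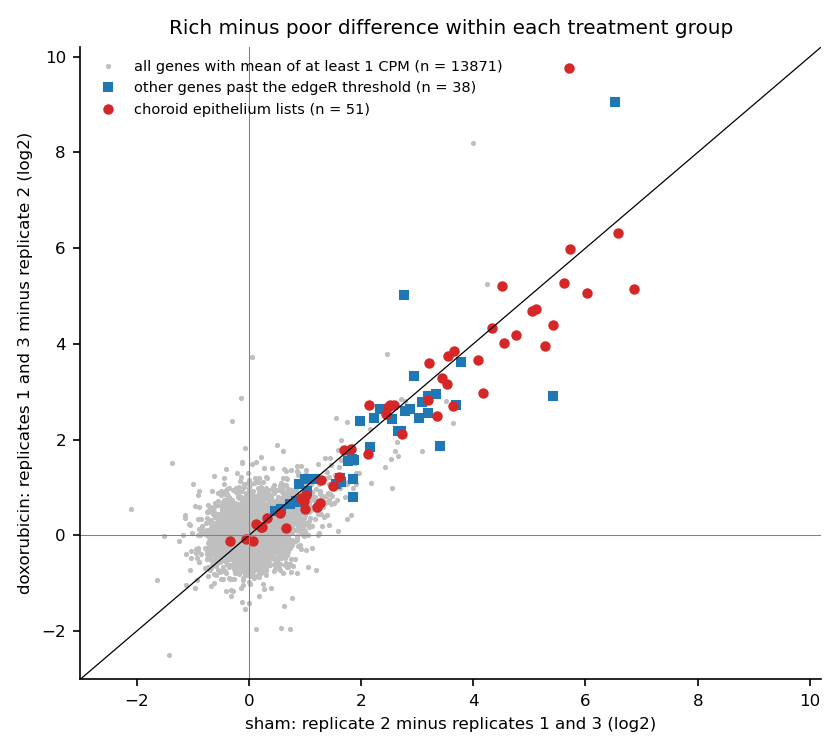
Log2 difference of rich minus poor libraries within sham (x axis) and within doxorubicin (y axis) for the 13871 genes whose mean reached 1 CPM; red, choroid epithelium list members, blue, other genes past the edgeR line, black line, equal differences. Ttr lies at 6.57 and 6.33. Fitted values above about 8 belong to genes with no count in the poor doxorubicin library, such as Wfdc2 at 9.75, and depend on the fit's prior count.

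Of the 41 called genes outside the choroid lists, 24 had a log2 difference of at least 2. Collagen genes among the 41 included Col8a2, at 10.8 to 27.7 CPM in rich against 2.12 to 3.95 CPM in poor libraries, Col9a3 at 21.5 to 58.0 against 11.9 to 12.9 CPM, and the basement membrane chain Col4a4 at 1.44 to 3.98 against 0.480 to 0.978 CPM. Sulf1, an extracellular sulfatase that trims heparan sulfate, was at 5.87, 54.8 and 6.12 CPM in sham, 44.4, 5.23 and 17.3 CPM in doxorubicin and 35.2, 22.6 and 50.8 CPM in doxorubicin plus MitoQ libraries. Wfikkn2, a secreted binder of growth differentiation factors 8 and 11, was at 2.47 to 4.88 against 0.680 to 1.02 CPM. Slc2a12, a hexose transporter, was at 9.48 to 24.0 against 2.80 to 3.33 CPM. Rdh5, a retinol dehydrogenase, was at 6.14 to 16.7 against 2.30 to 2.72 CPM, and Bmp6, a bone morphogenetic protein, at 11.2 to 18.8 against 5.27 to 8.88 CPM.

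Some called genes outside the choroid lists were only slightly higher. Ezr encodes ezrin, which links microvilli of epithelia to actin and is also made by astrocytes. It was at 105 to 131 CPM in rich and 85.4 to 89.1 CPM in poor libraries, a log2 difference of 0.56 (SE 0.07). Nqo1, a quinone reductase, was at 5.06 to 8.58 against 3.41 to 4.72 CPM, and the mitochondrial carrier Ucp2 at 23.4 to 37.9 against 16.8 to 21.3 CPM. Ppp1r1b (DARPP-32), a phosphatase inhibitor best known from striatal neurons, was at 62.3, 97.1 and 54.7 CPM in sham, 84.9, 55.0 and 89.3 CPM in doxorubicin and 77.1, 70.6 and 96.4 CPM in doxorubicin plus MitoQ libraries. It was 1 of 9 listed striatal markers, of which 7 were higher in rich libraries with a median log2 difference of 0.13. Of the 9, 1 was called, against 0.484% of all genes tested, and 8 overlapped. The dopamine receptor Drd1 was at 3.58 to 5.14 in rich and 3.08 to 7.16 CPM in poor libraries, and the adenosine receptor Adora2a at 1.42 to 2.73 and 1.90 to 2.28 CPM. Defb11, a beta-defensin, and Tmprss11a, a serine protease, were at or near 0 in poor libraries. Defb11 had no count in any of the 3 and was at 0.384 to 1.48 CPM in rich libraries, at least 9.42-fold higher against a floor of 3 counts per library.

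Lower in rich libraries without overlap, and under the edgeR line, were chiefly small differences. The 10 with the smallest p lay between -0.22 (Tango2) and -0.73 (A930012L18Rik) on the log2 scale. Fam193b was at 64.1 to 75.5 CPM in rich and 78.6 to 85.9 CPM in poor libraries, and the zinc finger gene Zfp57, a factor that maintains genomic imprints, at 4.89 to 5.43 against 6.50 to 8.24 CPM. The others were Slc2a4rg-ps (-0.64), Zfp692 (-0.38), Smpd4 (-0.27), L3mbtl1 (-0.71), 4933427D14Rik (-0.27) and the potassium channel subunit Kcng4 (-0.42).

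Within the rich class, called choroid genes were compared in proportion to Ttr. For each gene the mean of the poor libraries was subtracted and the excess in each rich library was set per 1000 CPM of Ttr excess. Over the 28 called members with at least 5 CPM in rich libraries, Ttr itself left out, the coefficient of variation (CV) of this ratio across the 6 rich libraries had a median of 12.96%, where the CV of their excess itself had a median of 46.3%. The CV of the ratio was under that of the excess in 27 of 28. These genes were chosen by the class difference and the ratio uses the Ttr values that defined the classes, so these are descriptions. Klotho was the steadiest of the abundant genes, with 36.8 CPM per 1000 CPM of Ttr in sham replicate 2, 37.8 and 35.5 in doxorubicin replicates 1 and 3 and 33.0, 38.6 and 35.5 in doxorubicin plus MitoQ replicates 1 to 3. Slc31a1 (CV 5.49%) and Lbp (CV 6.17%) varied as little. Perp (CV 32.6%) and Kcne2 (CV 28.1%) varied more. Doxorubicin plus MitoQ replicate 2, the library with the least Ttr of the class, had the highest ratio in 16 of 28 genes, with a median of 1.15 times a gene's own mean. Doxorubicin replicate 3 had the lowest in 13, with a median of 0.894. Igf2 shows the latter, at 17.9 per 1000 CPM of Ttr in that library and 28.4 to 37.1 in the other 5. Since the ratios share the Ttr value of the library, they are not independent of each other.

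**Figure D3:**
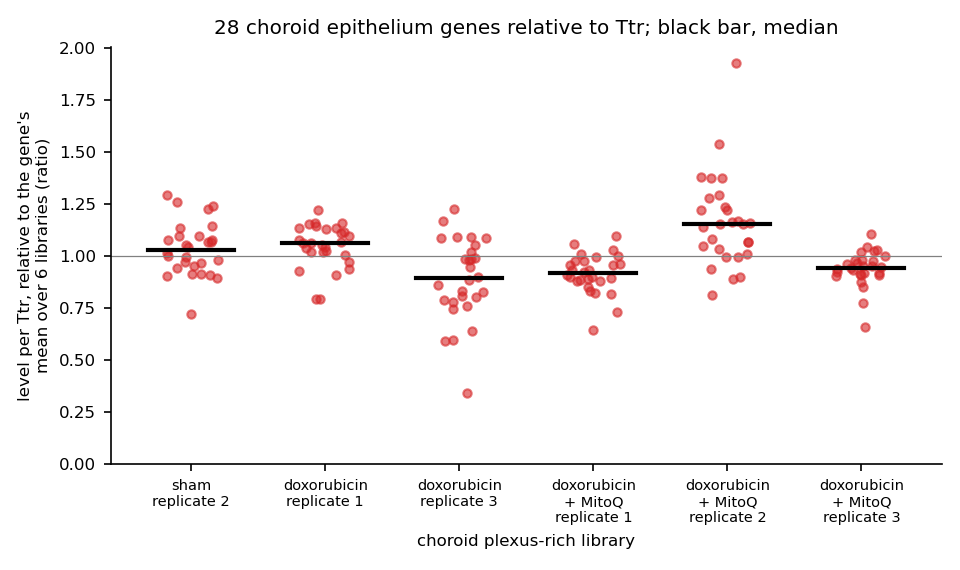
Excess over the poor libraries per unit of Ttr excess, divided by the gene's own mean over the 6 rich libraries (y axis, ratio), for 28 choroid epithelium genes; each point is 1 gene, black bars are medians. Medians run from 0.894 in doxorubicin replicate 3 to 1.15 in doxorubicin plus MitoQ replicate 2, around a mean of 1.

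Genes were also ranked by likeness to Ttr, as the Pearson correlation of log2 CPM over the 9 libraries among these 13871 genes. The 10 most alike were Slc4a5, Aqp1, Kcnj13, Cldn2, Abca4, Folr1, F5, Tmprss11a, Kcne2 and Tc2n. Their correlations over 9 libraries follow from the 2 classes, and over the 6 rich libraries alone they ran from 0.869 (Tmprss11a) to 0.988 (Abca4). These 6 libraries also differ in depth and treatment, so the correlations are a description.

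Markers of neighbouring cell types moved less. The ependyma, the ciliated lining of the ventricle that is continuous with the choroid epithelium, was represented by 24 tested genes, of which 24 were higher in rich libraries with a median log2 difference of 0.68, or 0.438 without sham replicate 2. None passed the edgeR line, where 0.484% of all genes did. For 8 of the 24, all 6 rich libraries lay above all 3 poor ones, which held for 3.12% of all genes tested. Rsph1, a radial spoke protein of motile cilia, was at 5.40, 12.5 and 4.64 CPM in sham, 9.24, 4.52 and 5.90 CPM in doxorubicin and 9.11, 9.12 and 12.1 CPM in doxorubicin plus MitoQ libraries. Doxorubicin replicate 3 lay close to the poor libraries here and in Foxj1, at 15.5 against 13.5 to 13.7 CPM, while its Ttr was in the rich range. The summed level of the list was 109 to 185 CPM in rich and 99.4 to 112 CPM in poor libraries. The choroid epithelium itself bears cilia, and the part of either tissue in these values was not tested.

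Fibroblasts of the meninges and choroid stroma showed no common shift. Of 23 tested genes 15 were higher in rich libraries, with a median of 0.07. The line was passed by 1 gene of the 23, where 0.484% of all genes passed it. That gene was Pcolce, which enhances procollagen cleavage, at 6.81 to 19.0 in rich against 3.57 to 5.40 CPM in poor libraries, whereas the collagen chain Col1a1 was at 3.79 to 8.86 and 4.28 to 11.9 CPM. The list summed to 130 to 276 CPM in rich and 129 to 241 CPM in poor libraries. Border macrophage and MHC class II genes were higher in 9 of 10, median 0.44, with 0 called and all 10 overlapping: the MHC invariant chain Cd74 was at 1.75 to 4.27 and 1.27 to 3.44 CPM. Brain endothelium (4 of 15 higher, median -0.08), pericytes and smooth muscle (1 of 10, -0.07), microglia (3 of 13, -0.06), astrocytes (8 of 12, 0.03) and myelin (3 of 11, -0.06) had medians near that of all genes.

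Neurons of the hippocampus and of adjoining regions gave small medians as well. CA1 pyramidal markers were higher in 1 of 9 (median -0.04), CA3 and CA2 markers in 6 of 12 (-0.02), dentate granule markers in 6 of 11 (0.01), those of interneurons in 4 of 10 (-0.04) and those of neocortex in 6 of 14 (-0.03). Thalamic and habenular markers were higher in 10 of 13, with a median of 0.21 and 0 called. The leading member there was Zic1, a zinc finger factor that thalamic neurons and meningeal cells express, at 11.9 to 29.1 in rich and 8.88 to 13.5 CPM in poor libraries. Its classes overlapped through doxorubicin plus MitoQ replicate 2.

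Thyroid hormone and retinoid genes were listed because transthyretin carries thyroxine and retinol. Of 9 thyroid hormone genes 4 were higher in rich libraries (median -0.00), and of 9 retinoid genes 5 (median 0.02), with 0 called in either list. Klf9, a thyroid hormone-responsive factor, was at 199 to 266 and 197 to 205 CPM.

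**Figure D4:**
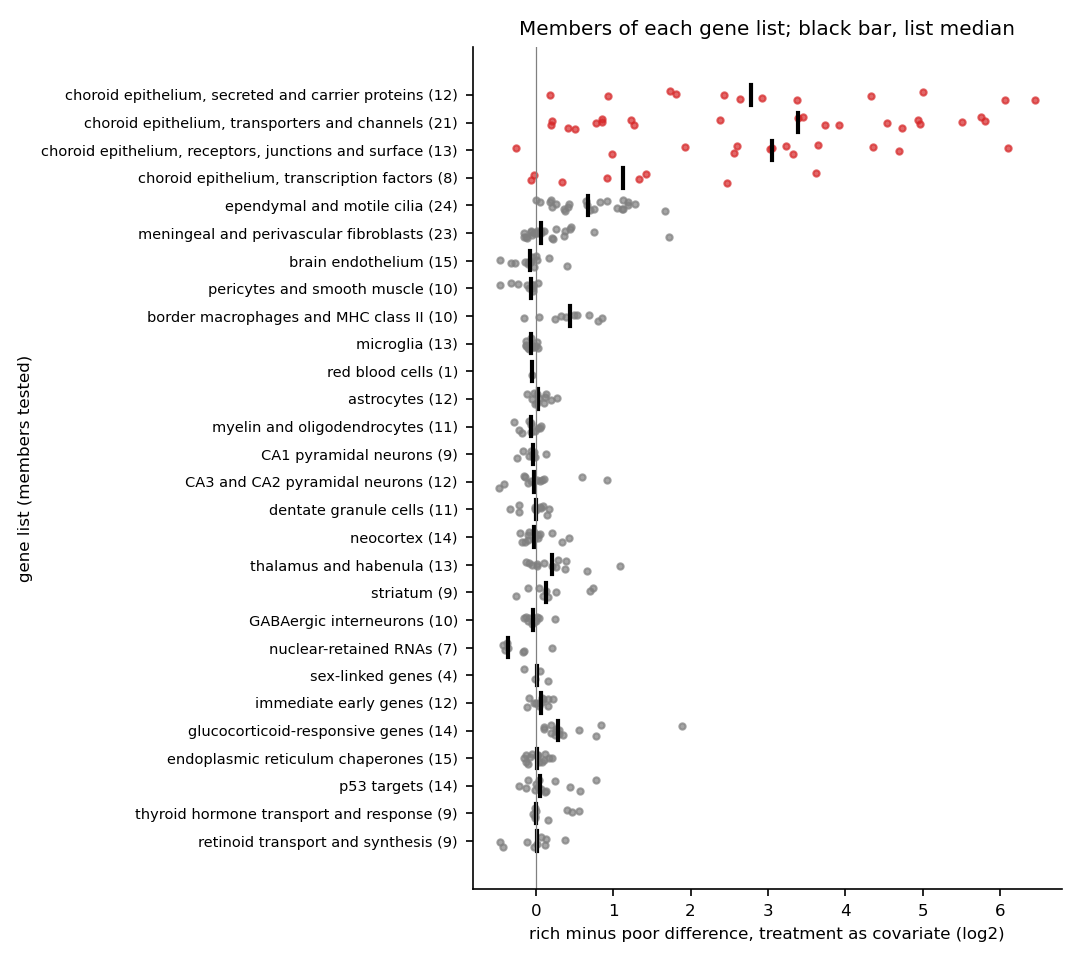
Log2 difference of rich minus poor libraries, treatment as covariate, for the tested members of 28 gene lists; each point is 1 gene, black bars are list medians, and red marks the 4 choroid epithelium lists. Choroid medians run from 1.13 to 3.39, and of the other lists the ependymal one has the highest median, 0.68.

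The labelled treatments could be tested with and without a term for the class. First, Ttr itself overlapped between all 3 treatments. Mean log2 CPM was 7.79 in sham, 9.33 in doxorubicin and 11.4 in doxorubicin plus MitoQ libraries. In a two-sided exact permutation test of 3 against 3 libraries, whose smallest possible p is 0.1, p was 1 for doxorubicin against sham (difference 1.54), 0.6 for MitoQ added against doxorubicin (2.05) and 0.3 for doxorubicin plus MitoQ against sham (3.597). Adjusted over these 3 comparisons, p was 1, 0.9 and 0.9. Without doxorubicin replicate 2, the poor library of its group, the second difference was -0.03. Leaving out 1 library at a time, the first difference ran from 0.267 (without doxorubicin replicate 1) to 3.74 (without sham replicate 2), and the third from 2.40 (without sham replicate 1) to 5.79 (without sham replicate 2).

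The class term turned the apparent direction of the choroid genes in 2 of the 3 comparisons. In doxorubicin plus MitoQ against sham, 52 of 54 choroid genes were higher without the term, with a median log2 fold change of 0.51, and 6 of 54 with it, with a median of -0.44. In doxorubicin against sham, 35 were higher without the term (median 0.07) and 6 with it (median -0.40). In MitoQ added against doxorubicin, 52 were higher without (median 0.46) and 30 with the term (median 0.01). EdgeR called 0 of the 54 in any comparison, with or without the term (0.0% of all genes tested). At an unadjusted p under 0.05 there were 6, 1 and 5 of the 54 with the term in doxorubicin against sham, MitoQ added against doxorubicin and doxorubicin plus MitoQ against sham, and 1, 1 and 0 without it. With the term these are 11.1%, 1.85% and 9.26% of the 54, beside 10.4%, 3.32% and 4.31% of all genes tested. Without it they are 1.85%, 1.85% and 0% of the 54, beside 8.83%, 3.30% and 2.95% of all genes tested. Since the class was defined by Ttr, the fit with the term takes out the mean class difference of Ttr and of genes that vary with it. It leaves their range within the rich class. There the only rich sham library had 4633 CPM of Ttr, against 1975 CPM in doxorubicin replicate 3 and 1213 CPM in doxorubicin plus MitoQ replicate 2. The part of this range in the medians with the term was not tested, and the comparison of both fits is a description. The comparisons share groups and are not independent.

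In doxorubicin plus MitoQ against sham, Ttr, Enpp2, Kl and Otx2 changed sign with the term, and their smaller errors follow from a class that was itself set by Ttr. The log2 fold change of Ttr was 0.98 (SE 1.60) without the term and -0.50 (SE 0.48) with it. For Enpp2 these values were 0.71 (SE 0.89) and -0.35 (SE 0.39), for Kl 0.66 (SE 0.75) and -0.36 (SE 0.36), and for Otx2 0.61 (SE 0.95) and -0.74 (SE 0.44). Since all 3 doxorubicin plus MitoQ libraries were rich, the fit takes the class difference of this comparison from the sham and doxorubicin groups.

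**Figure D5:**
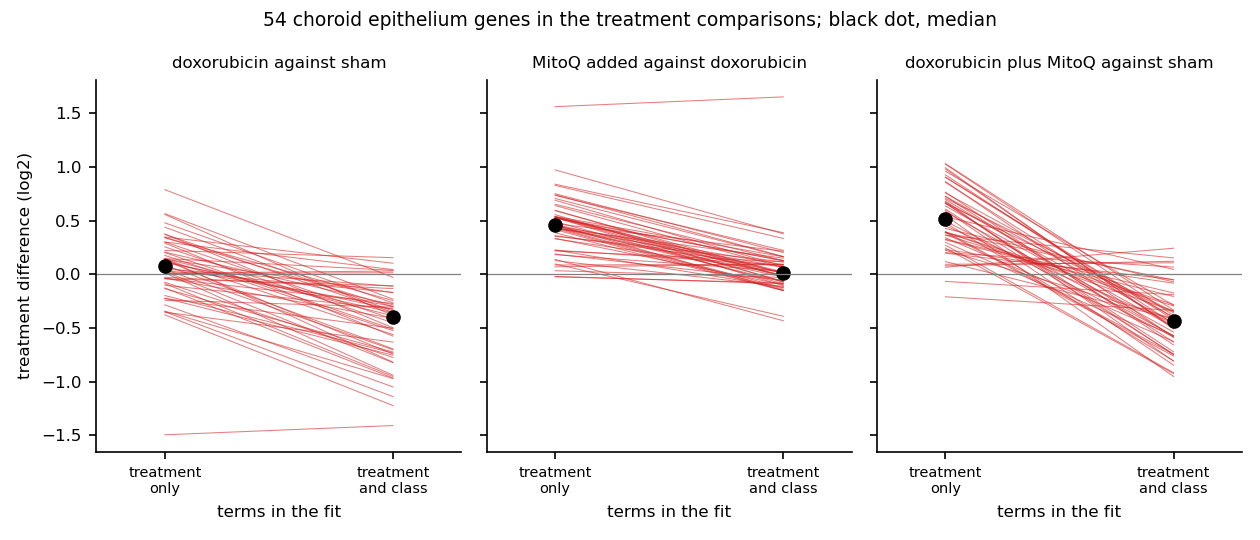
Log2 fold change of the 54 choroid epithelium genes (1 line each) in 3 treatment comparisons, fitted with treatment as the sole term (left) and with treatment and class (right); black dots are medians. The median moves from 0.07 to -0.40, from 0.46 to 0.01 and from 0.51 to -0.44.

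Over all genes, the common biological coefficient of variation was 11.4% with treatment alone, 9.80% with class alone and 9.33% with both. EdgeR called 0 of 15296 genes (0.0%) in each of the 3 comparisons, both with and without the class term. With the term, 1596 genes had an unadjusted p under 0.05 in doxorubicin against sham, 508 in MitoQ added against doxorubicin and 660 in doxorubicin plus MitoQ against sham, where without it these were 1350, 505 and 451. DESeq2 called 88, 5 and 3 genes with the term and 44, 5 and 2 without it, and limma-voom 0 with it.

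Several genes outside the choroid lists had much the same treatment values with and without the term. Dsc3, a desmosomal cadherin, had the smallest p of the genes lower after doxorubicin, at 2.93, 3.44 and 2.64 CPM in sham against 0.583, 0.753 and 0.474 CPM in doxorubicin libraries. Its log2 fold change was -2.33 with the term (adjusted p = 0.18) and -2.32 without it (adjusted p = 0.081, edgeR quasi-likelihood). Ogn, a small proteoglycan of fibroblasts, was at -1.03 (SE 0.14) with and -0.95 (SE 0.15) without the term, and the synaptic gene Cplx3 at -0.88 (SE 0.13) and -0.91 (SE 0.12). The fibroblast list as a whole had a median of -0.74 in both fits, with 23 of 23 genes lower and 0 called. Ryr3, the calcium release channel of hippocampal neurons, moved from 0.35 (SE 0.11) without the term to 0.45 (SE 0.08) with it. In MitoQ added against doxorubicin the ribosomal RNA entry Rn45s was at 715, 656 and 887 CPM in doxorubicin against 11500, 2042 and 8289 CPM in doxorubicin plus MitoQ libraries. Its log2 fold change was 3.17 (SE 0.51) with and 3.27 (SE 0.48) without the term. The p53 targets Cdkn1a and Mdm2 were at 0.23 (SE 0.35) and -0.02 (SE 0.09) in doxorubicin against sham with the term. Fitted without it they were at 0.51 (SE 0.39) and 0.01 (SE 0.09), so Cdkn1a did not keep its value. The Cdkn1a value with the term rests on doxorubicin replicate 3, at 29.1 CPM against 6.85 to 14.9 CPM in all other libraries. It was -0.22 without that library.

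Within a class, treatment could be compared in few libraries. Among rich libraries, MitoQ added against doxorubicin (3 against 2) gave 0 genes past edgeR's threshold and 721 at an unadjusted p under 0.05. Among poor libraries, doxorubicin against sham compared 1 library with 2, assuming that the lone library varied like the others, and gave 3 and 622.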

How the data were processed

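The authors deposited 1 table of unnormalized counts of reads, with gene symbols as rows. Trizol and spin columns were used for extraction and a TruSeq kit for the libraries, per the labels' protocols. STAR, DESeq2 and mm10 are named in the submitters' processing notes, while no version, counting program, strand setting or annotation is stated in the sources used here. Of 24421 entries, 27 carried dates instead of symbols (0.309% to 0.322% of counts) and were left out of tests, leaving 24394 genes, 4618 without counts; 0 columns belong to no sample. A count of 3 equals 0.0728 to 0.122 CPM.

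EdgeR 4.0.16 in R 4.3.3 (TMM, filterByExpr by treatment with minimum count 10, 15296 genes kept) fitted class and treatment over 9 libraries. Log2 differences carry an SE, the absolute value over the square root of F. DESeq2 1.42.0 and limma 3.58.1 were alternatives. Likeness used log2 CPM with a prior count of 1. Class membership, gene lists and tests were chosen with earlier results of these data known. Named were list members, the 10 genes per direction with smallest p among those at 1 CPM or more without overlap, the 3 leading members of other lists and 5 genes per direction of each treatment comparison, given by example. In 3 simulated sets of 15296 genes the rich against poor fit recovered 65.2%, 89.6% and 99.0% of 1.5-, 2- and 4-fold changes, and 5.76% of calls were false. The changed genes were drawn at random from those at 1 CPM or more. They had the same fold in all rich libraries and no treatment difference. Choroid genes varied within the rich class, so these shares do not give the recovery for them. Gene coordinates and exon lengths are from GENCODE M21 (GRCm38). Figures used matplotlib 3.10.9. The Ttr promoter and the values of some list members are not reported here.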

Additional observations from a re-analysis of the deposited data

Results flagged for a closer look

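In 125 of the named or listed genes the 6 rich libraries were checked for a library that stood apart. The measure was the gap to its nearest neighbour over the whole range (Dixon's ratio). Chance flags about 1 gene in 20, and 8 were flagged, which is close to that share. The 125 did not include every gene named in this report. Plin4, Hif3a and Fkbp5, which stood far highest in doxorubicin replicate 3, are not among the 8, so the share holds for the checked genes alone. The values below are CPM.

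Cdkn1a, a p53- and glucocorticoid-responsive cell cycle inhibitor, stood at 29.1 in doxorubicin replicate 3, with the next library at 14.9 (ratio 0.640). Klf9, another hormone-responsive gene, stood at 266 in the same library, with the next at 219 (0.699). Sham replicate 2 was lowest for the pseudogene Slc2a4rg-ps, at 4.78 against 5.98 (0.714), and highest for the amino acid transporter Slc6a20a, at 12.96 against 9.33 (0.626), and for the smooth muscle gene Tagln, at 3.94 against 2.67 (0.632). Myh11, smooth muscle myosin, stood at 9.67 in doxorubicin replicate 1 against 6.43 (0.782). The transcription factor Emx2 stood at 28.5 in doxorubicin plus MitoQ replicate 2 against 24.0 (0.753), and the astrocyte enzyme Aldh1l1 at 45.4 in doxorubicin plus MitoQ replicate 1 against 58.0 (0.631), its lowest library. No explanation of these values was tested.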

How the results depend on the processing

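The direction of the class difference was steadier than its count. All 74 called genes were higher in rich libraries under each of the 17 alternatives that gave a value for them on the same scale, and the 33 choroid members stayed at or above 0.73 on the log2 scale. The number of genes called, 74, was 158 at an adjusted p under 0.1, 231 with DESeq2, 8 with limma-voom, 189 without a filter, 228 with log2 Ttr as a number in place of the class, 115 without the treatment term and 112 in sham and doxorubicin libraries only. Without 1 library each it ranged from 0 to 226. Deviations from the treatment means correlated at -0.605 to 0.465 between libraries of the same replicate number. Between different numbers the range was -0.456 to 0.621. The class was not removed from these deviations, so they cannot decide whether the numbers pair the samples. With a replicate block 40 genes were called, 36 of them among the 74. The median of the transport list was 2.73 without sham replicate 2 (leaving out each library, 2.73 to 3.56).

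Treatment calls with the class term were 0. For doxorubicin against sham they were 88 with DESeq2 (44 without the class term), 12 without a filter, 1 with the replicate block and 0 to 4 without 1 library each. For MitoQ added against doxorubicin these were 5 with DESeq2 (5), 4 without a filter and 0 to 4, and for doxorubicin plus MitoQ against sham 3 with DESeq2 (2) and 0 to 5. DESeq2 without the class term was added after seeing the data. The values above 0 on leaving out a library came without doxorubicin plus MitoQ replicate 2. Small values reversed. In doxorubicin against sham, Cdkn1a (0.23) ranged from -0.22 without doxorubicin replicate 3 to 0.47 without doxorubicin replicate 1. Mdm2 (-0.02) ranged there from -0.15 without doxorubicin replicate 2 to 0.084 without sham replicate 2, and was 0.0131 without the class term (0.0123 by DESeq2). In doxorubicin plus MitoQ against sham it ranged from -0.19 to 0.042 on leaving out those same libraries. The Ttr difference of MitoQ added against doxorubicin ranged from -0.029 without doxorubicin replicate 2 to 3.33 without doxorubicin replicate 1. The causes were not tested. At 3 counts, 0.0728 to 0.122 CPM, levels of the rarest choroid genes in poor libraries are at the limit of depth.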

Other observations

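Glucocorticoid-responsive genes were higher in rich libraries in 14 of 14, with a median log2 difference of 0.28 and 0 called. All 14 overlapped between the classes, and 10 were higher both within sham and within doxorubicin. On leaving out 1 library at a time the median ranged from 0.168 to 0.378. In some of these genes 1 library stood out. Doxorubicin replicate 3 had Fkbp5, a chaperone that tunes the glucocorticoid receptor, at 120 CPM, against 62.3 to 77.2 CPM in the other 8 libraries, and Plin4 at 54.8 CPM against 1.60 to 4.87 CPM.

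Immediate early genes, which neurons switch on with activity, had a median class difference of 0.06, made of 0.60 within sham and -0.50 within doxorubicin. Nuclear-retained RNAs were lower in rich libraries in 6 of 7, with a median of -0.36. This was -0.56 within sham and -0.13 within doxorubicin, -0.13 without sham replicate 2 and -0.55 without doxorubicin replicate 2. Malat1 was at 165 CPM in sham replicate 2 against 270 and 259 CPM in sham replicates 1 and 3, and at 299, 334 and 300 CPM in the doxorubicin replicates. Endoplasmic reticulum chaperones were higher in 9 of 15 (median 0.01) and p53 targets in 9 of 14 (median 0.06), with 0 called in each.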
